A study of Mus musculus with 12 samples.

Results

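The 81 genes described here encode proteins of the cytosolic ribosome. They were chosen by name, as the gene rows whose symbol is Rps or Rpl followed by a number and at most a short suffix, out of 53656 gene rows in the deposited tables. The set holds 32 small-subunit (Rps) and 49 large-subunit (Rpl) genes, 9 of which have a paralog name ending in l or in l and a digit (Rpl3l, Rpl7l1, Rpl10l, Rpl22l1, Rpl36al, Rpl39l, Rps4l, Rps12l1 and Rps27l). Pseudogene rows and the S6 kinases are not part of it. The name pattern also leaves out 7 ribosomal protein genes that carry other names, such as Rplp0, Rplp1, Rplp2, Rpsa, Rps3a1 and Fau, which are given beside the family as a separate list. Of the 81, 76 passed the filter on low counts and were tested, and 72 of these have no paralog name.

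The libraries come from immature T cells sorted from mouse thymus, in 4 groups of 3. All mice carried loxP-flanked (fl/fl) alleles of Zfp148 and of Zfp281, which encode zinc finger transcription factors. Controls had no Cre, and in the double knockout (dKO) Cre recombinase was expressed from the Cd4 promoter, which becomes active during T cell development in the thymus. An effect of Cre alone and the loss of the floxed genes cannot be told apart in this design. Both sorted populations were CD44low and CD69+. The immature CD4 cells (ImCD4) were in addition CD4+CD8- and H2-Kb-, and the immature CD8 cells (ImCD8) were CD8+ CD4- with surface TCRb+. No label states that replicate libraries stem from different mice, so a p-value here reflects variation among libraries that could be technical in origin. Mouse age is not stated in the labels.

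Ribosomal proteins assemble with ribosomal RNA in the nucleolus into the small subunit, which reads the messenger RNA, and the large subunit, which forms the peptide bonds. Nearly every protein is needed in an equal amount per ribosome, and the messenger RNAs share a start of pyrimidine bases, the terminal oligopyrimidine motif, through which mTOR signalling controls their translation. In T cells, ribosome production rises when cells are activated and grow, and loss of single members such as Rpl22 is known to impair particular T cell lineages.

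Gene counts per library ranged from 7315833 to 10943143. Groups follow the sample titles, because the genotype label says the opposite of the title in the 6 ImCD8 libraries. Zfp281 was at 10.2 to 21.4 CPM (the depth-normalised read count, after scaling by trimmed means) in the 6 libraries titled dKO and at 113 to 562 CPM in the 6 titled control, and Zfp148 at 45.6 to 68.9 CPM against 162 to 182 CPM, so both targeted genes go with the titles. Cd4 was at 1089 to 1417 CPM in ImCD4 and at 1.38 to 11.3 CPM in ImCD8, as the gates select. Replicate 3 of all 4 groups stood apart on the third principal component (5.31% of the variance), and a fit with a term for these 4 libraries called 9 members higher in dKO ImCD4 and 12 in dKO ImCD8. Cd8a was at 23.0 and 23.7 CPM in replicate 3 of control and dKO ImCD4, against 67.6 to 89.1 CPM in replicates 1 and 2 of these groups, and the part of this in the results was not tested. Another 2 libraries stood apart for the ribosomal protein genes, replicate 2 of dKO ImCD4 and replicate 2 of dKO ImCD8, and results that rest on them are given with and without them. Zfp281 was at 16.2 and 13.3 CPM in these 2 libraries, within the range of the other dKO libraries.

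The clearest difference in the family was between the populations. Their gates also differ in H2-Kb and TCRb, so lineage and these other parts of the gates cannot be told apart. Counts on the 81 genes made up 1.94%, 1.86% and 1.85% of all gene counts in the 3 control ImCD4 libraries and 2.87%, 2.96% and 2.88% in the 3 control ImCD8 libraries. The share was thus 1.88% ± 0.0469 (SD, n = 3) in control ImCD4 and 2.90% ± 0.0481 (SD, n = 3) in control ImCD8, a ratio of 1.54. The dKO ImCD4 libraries stood at 2.19%, 1.895% and 2.38%, and the dKO ImCD8 libraries at 4.03%, 2.94% and 3.85%. All ImCD8 libraries of either genotype lay above all ImCD4 libraries. The dKO means, 2.16% ± 0.247 (SD, n = 3) in ImCD4 and 3.61% ± 0.582 (SD, n = 3) in ImCD8, were 1.15 and 1.24 times the control means, but the dKO libraries overlapped the control libraries in both populations because replicate 2 lay at the control level. These shares describe members chosen with earlier results known and carry no test. A share is relative to the rest of the RNA, and in bulk samples fewer cells of a type and less RNA per cell cannot be told apart.

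**Figure D1:**
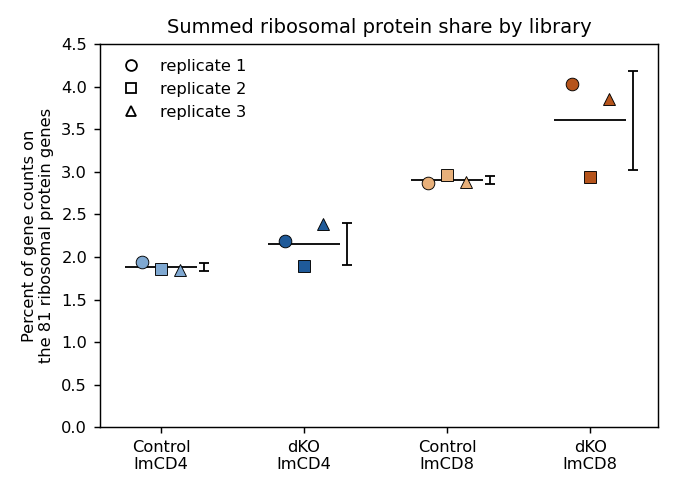
Percent of each library's gene counts that fell on the 81 ribosomal protein genes, by group, with 1 symbol per replicate, a horizontal line at the group mean and a bar of 1 SD beside it (n = 3). The 6 ImCD8 libraries lie above the 6 ImCD4 libraries, and replicate 2 of both dKO groups lies at the level of its controls.

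In control cells 72 of the 76 tested members were higher in ImCD8 than in ImCD4 and none was lower at an adjusted p under 0.05 (edgeR quasi-likelihood test, Benjamini-Hochberg adjustment over 13383 genes). That is 94.7% of the members tested, beside 23.1% of all genes tested that were called higher, 22.1% lower and 45.3% in either direction. The median log2 fold change was 0.69, a 1.61-fold difference, beside -0.01 over all genes. Small-subunit members were called in 29 of 31 cases with a median of 0.72, and large-subunit members in 43 of 45 with a median of 0.63. With the libraries scaled to the summed counts of the family itself, which sets the family's mean change near 0 by construction, the median of the members was -0.01 and the median of all genes moved to -0.70.

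The member with the largest rise was Rps15a, a small-subunit protein (chr7:118104372-118116188, minus strand, mm10). Its level was 217, 198 and 203 CPM in control ImCD4 and 432, 441 and 427 CPM in control ImCD8. Every ImCD8 library was at about the same level and well above every ImCD4 library, with a log2 fold change of 1.07 ± 0.13 (SE, adjusted p = 1.18e-05, edgeR). Rpl32, a large-subunit protein, stood at 379, 395 and 370.3 CPM in control ImCD4 and at 703, 747 and 738 CPM in control ImCD8. It rose by 0.94 ± 0.10 on the log2 scale (SE, adjusted p = 1.64e-06, edgeR), with no overlap of the groups. The small-subunit gene Rps24 rose by 0.90 and the large-subunit gene Rpl37 by 0.89 on the same scale, both with no overlap between the 2 groups' libraries. For Rps24, which is among the genes mutated in Diamond-Blackfan anaemia, the values were 236, 214 and 225 CPM in control ImCD4 and 405, 438 and 416 CPM in control ImCD8.

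The 4 tested members that were not called higher in control cells are 3 genes with a paralog name and Rpl24. Rpl7l1 was at -0.12 ± 0.08 (SE) on the log2 scale and Rps27l at 0.08 ± 0.10 (SE), both with overlapping libraries, while Rps4l was at -1.23 ± 0.51 (SE, adjusted p = 0.0598, edgeR) from 0.425 to 2.36 CPM. Rps4l was called lower in control ImCD8 in 8 of the other settings tried, among them scaling by library size alone and no filter on low counts. Rpl24 is a large-subunit gene of which 71.5% of the exon bases overlap the readthrough gene model Gm28037, and it was counted at only 0.884 to 2.55 CPM in the control libraries. Its log2 fold change of 0.75 ± 0.34 (SE, adjusted p = 0.0824, edgeR) therefore rests on few reads.

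**Figure D2:**
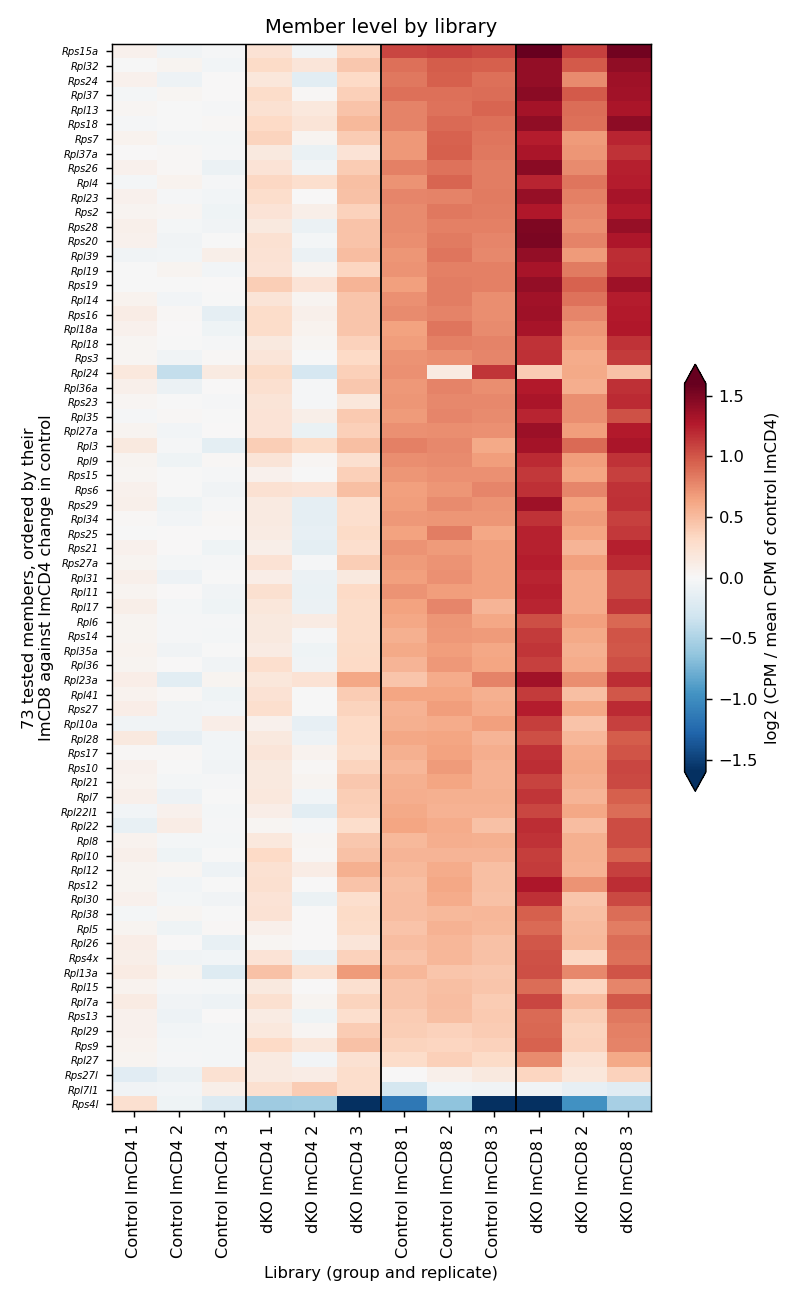
Level of 73 of the 76 tested members (rows, ordered by their change between the populations in control cells) in the 12 libraries (columns), as log2 of CPM (scaled by trimmed means) over the mean CPM of control ImCD4, with values beyond 1.6 shown at the end of the colour scale. Nearly the whole column block of ImCD8 is raised, the columns of dKO replicate 2 are paler than those of replicates 1 and 3, and Rps27l, Rpl7l1 and Rps4l at the foot do not follow the family.

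In dKO cells the same comparison gave 72 members higher and 1 lower in ImCD8, or 94.7% of the members called higher beside 22.1% of all genes, with 21.6% of all genes called lower and 43.7% in either direction. The median log2 fold change was 0.81, or 1.75-fold, and 0.00 under scaling to the family's own sum, where the median of all genes was -0.78. The control and dKO comparisons share no libraries but share 1 fit and its estimate of the spread. Rps15a was again the largest rise, from 242, 201 and 260.2 CPM in dKO ImCD4 to 666, 439 and 598 CPM in dKO ImCD8. The lowest dKO ImCD8 library, replicate 2, still stood above the highest dKO ImCD4 library, and the log2 fold change was 1.28 ± 0.13 (SE, adjusted p = 2.31e-06, edgeR). Rps24, Rps28, Rpl37 and Rps20 had log2 fold changes of 1.08, 1.05, 1.03 and 0.99. The member that fell was Rpl7l1, by 0.44 ± 0.08 on the log2 scale (SE, adjusted p = 0.000291, edgeR), with no overlap of the groups. Without replicate 2 of both dKO groups, an alternative added after its level had been seen, 71 members were called higher and 1 lower.

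Because the members moved together, their starts were compared. Of the 81 members, 60 had a RefSeq promoter window (GRCm38.p6, the mm10 assembly) from 250 bases before to 50 bases after the annotated start. A run of at least 8 C or T bases on the gene's strand lay within 25 bases of the start in 36 of these 60 windows (60%), beside 27.1% of 27025 genes with a window. The letters CCCCTCCC, the G-rich kind of sequence that the Zfp148 family is known to bind, occurred on either strand of the window in 2 of 60 members (3.33%), Rps15a and Rps16, beside 13.4% of all genes. A match is a description of letters, and no match says only that these letters are not in this window. The sequences below are the last 40 bases before and the first 20 bases after the annotated start of members named in the results. They are written 5′ to 3′ on the gene's strand, with the longest pyrimidine run (the first if equal) in capitals. Other runs of at least 8 were left in lower case, as in Rps15a across its start and in Rps27l nearer its start. Shown are Rps6, Rps12, Rpl13a and Rps15a, which all have a run and were called higher in control ImCD8. The 3 tested paralogs that have a window follow. Members without a run of 8 were called higher too, among them Rpl10, Rpl22 and Rpl36a, whose longest runs there were 4, 5 and 5.
Rps6 (chr4:86857348-86857407, minus strand): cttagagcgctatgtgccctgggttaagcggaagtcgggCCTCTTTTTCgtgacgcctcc
Rps12 (chr10:23787190-23787249, minus strand): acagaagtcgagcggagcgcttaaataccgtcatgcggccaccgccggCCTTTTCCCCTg
Rpl13a (chr7:45128726-45128785, minus strand): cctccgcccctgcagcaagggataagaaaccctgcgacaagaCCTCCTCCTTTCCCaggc
Rps15a (chr7:118116128-118116187, minus strand): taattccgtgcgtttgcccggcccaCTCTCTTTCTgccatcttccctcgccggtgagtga
Rpl22l1 (chr3:28805468-28805527, plus strand): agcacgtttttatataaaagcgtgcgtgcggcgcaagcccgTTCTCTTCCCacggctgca
Rps27l (chr9:66946046-66946105, plus strand): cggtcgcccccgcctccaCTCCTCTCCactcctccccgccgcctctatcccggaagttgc
Rpl7l1 (chr17:46782637-46782696, minus strand): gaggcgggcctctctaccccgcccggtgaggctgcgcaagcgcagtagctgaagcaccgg
Rpl22l1, whose level followed the family between the populations, has a run of 10 pyrimidines next to its annotated start, as has Rps6. Rpl7l1, which did not follow the family, has no run of 8 within 25 bases of its start, the longest counted there being 4. Rps27l also did not follow the family and has a run of 9.

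In dKO ImCD4 cells 6 of the 76 members rose against control ImCD4 and none fell (edgeR). This is 7.89% of the members, beside 7.26% of all genes called higher, 6.16% called lower and 13.4% in either direction. The members shared a direction, with 75 of 76 above 0 beside 52.5% of all genes, except that scaling to the family's own sum left 27 above 0 and moved the median of all genes to -0.19. The median log2 fold change was 0.19, a 1.14-fold difference, beside 0.02 over all genes. In 18 of 76 members all 3 dKO libraries lay above all 3 controls, beside 18.1% of all genes. In 1 member, Rps4l, at a log2 fold change of -0.985, all 3 dKO libraries lay below all 3 controls. It was the 1 member below 0, had few reads and was not called. An unadjusted p under 0.05 was reached by 23.7% of the members and by 27.3% of all genes.

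The called members were the large-subunit genes Rpl3, Rpl4 and Rpl32, the small-subunit genes Rps19 and Rps6, and the paralog Rpl7l1. Rpl3, a protein close to the peptidyl transferase centre, stood at 435, 384 and 349 CPM in control ImCD4 and at 512, 482 and 543 CPM in dKO ImCD4. All dKO libraries were above the controls, with a log2 fold change of 0.40 ± 0.11 (SE, adjusted p = 0.0256, edgeR). Rps19, the gene most often mutated in Diamond-Blackfan anaemia, stood at 437, 437 and 439 CPM in control ImCD4 and at 576, 507 and 638 CPM in dKO ImCD4. The 3 controls were nearly equal and all dKO libraries lay above them, replicate 2 the least, with a log2 fold change of 0.39 ± 0.11 (SE, adjusted p = 0.0272, edgeR).

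Rps6, the target of the S6 kinases, was at 240.5, 229.8 and 221 CPM in control ImCD4 and at 273, 268 and 323 CPM in dKO ImCD4. The groups did not overlap, and it rose by 0.32 ± 0.10 on the log2 scale (SE, adjusted p = 0.0406, edgeR). Rpl4 and Rpl32 rose by 0.36 and 0.32 on the same scale. Rpl7l1, a nucleolar relative of Rpl7, was at 166, 168 and 184 CPM in control ImCD4 and at 207, 229.9 and 210.0 CPM in dKO ImCD4. Replicate 2 was here the highest of the 3 dKO libraries and not the lowest, and the rise was 0.32 ± 0.08 (SE, adjusted p = 0.0132, edgeR). The count depended on single libraries, since without 1 of the control ImCD4 libraries, or without dKO ImCD4 replicate 1 or 3, 1 or 2 members were called, and with no filter on low counts 21 were. Of 24 alternatives, 12 lost the call on Rpl32, among them those without any 1 control library of either population, and 5 to 9 lost each of the other 5 calls. For Rpl7l1 these included the fits that leave out control ImCD4 replicate 1, control ImCD4 replicate 2 or dKO ImCD4 replicate 2, and for Rps6 the fit that leaves out control ImCD8 replicate 1.

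**Figure D3:**
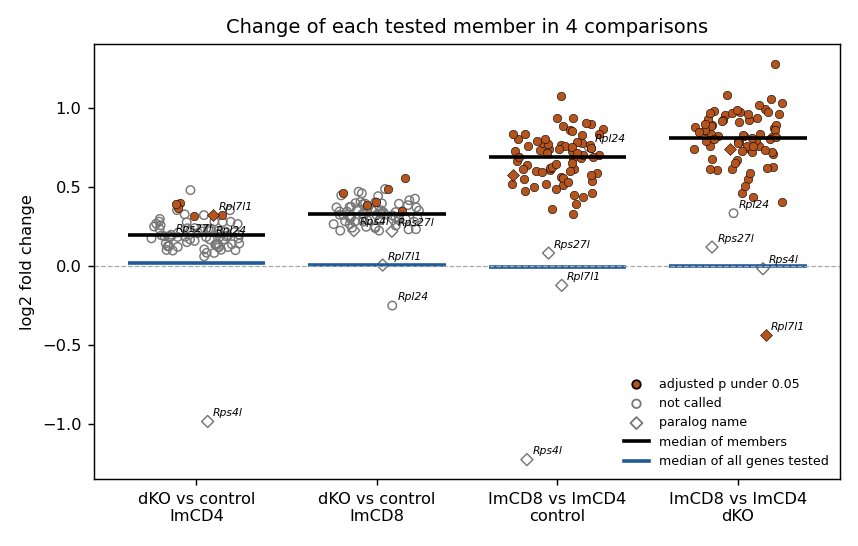
Log2 fold change of each of the 76 tested members in 4 comparisons, with members at an adjusted p under 0.05 (edgeR) filled, genes with a paralog name as diamonds, and lines at the median of the members and of all genes tested. The whole cloud lies above 0 in all 4 comparisons apart from a few named genes, and most points are filled in the comparisons between the populations. Libraries were scaled by trimmed means, and scaling to the family's own sum moves each cloud to about 0.

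In dKO ImCD8 cells 6 members rose against control ImCD8 and none fell, again 7.89% of those tested, beside 2.62% of all genes called higher, 3.53% lower and 6.14% in either direction. Of the 76 members 75 lay above 0, beside 51.4% of all genes, except that scaling to the family's own sum left 35 above 0 and moved the median of all genes to -0.29. The median log2 fold change was 0.33, or 1.26-fold. An unadjusted p under 0.05 was reached by 78.9% of the members and by 18.8% of all genes. The libraries of the groups did not overlap in 13 members, all higher in dKO, beside 10.3% of all genes higher without overlap.

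Rps12, a small-subunit gene, showed the largest rise in ImCD8. It stood at 196, 215 and 196 CPM in control ImCD8 and at 342, 231 and 319 CPM in dKO ImCD8, so replicates 1 and 3 were high and replicate 2 was just above the controls. The log2 fold change was 0.56 ± 0.13 (SE, adjusted p = 0.0225, edgeR). Rps19 stood at 692, 774 and 767 CPM in control ImCD8 and at 1160, 840.1 and 1122 CPM in dKO ImCD8, with a log2 fold change of 0.48 ± 0.11 (SE, adjusted p = 0.0133, edgeR). Rpl3, at 681, 663 and 593 CPM in control ImCD8, reached 980.4, 730.1 and 959.9 CPM in dKO ImCD8. Its log2 fold change was 0.46 ± 0.11 (SE, adjusted p = 0.0173, edgeR), and in all 3 genes replicate 2 was the lowest dKO library but still above every control. Rpl14, Rpl37 and Rpl32, all of the large subunit, rose by 0.40, 0.38 and 0.35 on the log2 scale. Rpl3, Rpl32 and Rps19 were called in both populations, which share no libraries but share 1 fit and its estimate of the spread. The count in ImCD8 varied with the tool and filter, at 20 members with DESeq2, 3 with limma-voom and 60 with edgeR and no filter on low counts. The calls on Rpl14, Rpl32 and Rpl37 were each lost in 13 of 24 alternatives, among them those without any 1 control library of either population and without dKO ImCD4 replicate 1. Those on Rps12, Rps19 and Rpl3 were each lost in 6, among them the fits without control ImCD8 replicate 1 for Rps12 and Rps19 and without control ImCD8 replicate 3 for Rps12 and Rpl3.

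Replicate 2 of each dKO group stood below the other dKO libraries for the family. Relative to the mean of its controls, the median log2 ratio of the 72 tested members without a paralog name was 0.21, 0.00 and 0.37 in dKO ImCD4 replicates 1, 2 and 3, where the value of replicate 2 was 0.001. In dKO ImCD8 it was 0.54, -0.03 and 0.44. Replicate 2 was the lowest of the 3 libraries for 71 of the 72 members in dKO ImCD4 and for 71 of 72 in dKO ImCD8. In dKO ImCD8, 71 of the 72 members were above every control library in replicate 1 and in replicate 3, and 11 were in replicate 2. In dKO ImCD4 the counts were 69, 17 and 72 members for replicates 1, 2 and 3.

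Without dKO ImCD8 replicate 2, 70 members were called higher in dKO ImCD8, and without dKO ImCD8 replicate 1 or replicate 3 none was. Without dKO ImCD4 replicate 2, 5 members were called higher in dKO ImCD4, close to the 6 with all libraries. Leaving out replicate 2 of both groups, an alternative added after their level had been seen, gave 48 members called higher in ImCD4 and 71 in ImCD8, with medians of 0.31 and 0.48 on the log2 scale. Over all genes that fit called 4.78% and 3.12% higher.

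The mitochondrial share and the share of multiple alignments were also lowest in replicate 2 of both dKO groups. Mitochondrially encoded genes took 0.921%, 0.633% and 0.961% of gene counts in dKO ImCD4 replicates 1, 2 and 3 and 1.54%, 1.27% and 1.70% in dKO ImCD8. Reads with more than 1 alignment were 4.11%, 3.87% and 4.19% of the tallied reads in dKO ImCD4 and 5.39%, 4.47% and 5% in dKO ImCD8. The summed markers of B cells and of thymic epithelium were not lowest in replicate 2 of both groups. The summed CPM of B cell markers was 23.6, 22.8 and 36.8 in dKO ImCD8 replicates 1, 2 and 3 against 11.3 to 14.3 in control ImCD8, and 6.69, 8.04 and 5.88 in dKO ImCD4 against 3.18 to 5.53 in control ImCD4. That of thymic epithelial markers was 22.1, 15.6 and 12.4 in dKO ImCD8 against 8.97 to 10.4 in control ImCD8, and 7.05, 5.55 and 6.84 in dKO ImCD4 against 4.34 to 5.54 in control ImCD4. Of these lists of 6 genes each, 2 B cell markers and 1 epithelial marker passed the filter on low counts, and the sums came mostly from Cd79b and Epcam, both called higher in dKO ImCD8. The defining B cell markers Ms4a1 and Pax5 had 0 or 1 count per group of 3 libraries, and the epithelial factor Foxn1 had 0 to 2. The part of the mitochondrial share, the multiple alignments and these markers in the result was not tested.

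The members also varied together over the libraries. Their median coefficient of variation over the 3 libraries, for the 72 without a paralog name, was 4.11% in control ImCD4, 13% in dKO ImCD4, 3.24% in control ImCD8 and 19.7% in dKO ImCD8. For all genes of 20 CPM or more it was 6.25%, 6.78%, 6.73% and 7.66%, so the family's value was the lower in the controls and the higher in the dKO groups. The sets were not matched for level, and counting noise is larger at low counts. The part of level in the lower value of the controls was not tested. Over the 12 libraries the median correlation between 2 members' deviations from their group means was 0.94, and 99.5% of pairs were above 0. The median deviation of a library lay between -0.03 and 0.053 in the controls and between -0.339 and 0.221 in the dKO groups. No correlation was computed for the controls alone. These correlations share the libraries and their scaling and are given as a description. The effect of the dKO on each of the 72 members in ImCD4 was related to that in ImCD8, with Pearson's r = 0.39 and Spearman's rho = 0.45 across genes, which are not independent replicates.

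The dKO effect did not differ between the populations for any member at an adjusted p under 0.05 (edgeR), beside 0.433% of all genes called, 0.179% with the more positive effect in ImCD8 and 0.254% with the more positive effect in ImCD4. An unadjusted p under 0.05 was reached by 1 member, Rpl7l1, beside 9.98% of all genes, and none of the 11 other settings with a value for this comparison, DESeq2 and limma-voom included, and none of the 12 fits without 1 library called a member. The effect was more positive in ImCD8 for 71 of 76 members, beside 48.3% of all genes, with a median difference of 0.13 on the log2 scale, which became 0.27 without dKO ImCD8 replicate 2. Scaled to the family's own sum, 43 of 76 members were above 0 with a median of 0.015. Under the main scaling by trimmed means, 45 of 76 were above 0 with a median of 0.02 without dKO ImCD8 replicate 1. Without dKO ImCD4 replicate 2 that scaling gave 54 of 76, with a median of 0.03. The 5 members with the more positive effect in ImCD4 were Rpl24, at a difference of -0.42 ± 0.47 (SE), Rpl7l1, Rpl4 at -0.07, Rps7 at -0.04 and Rpl13a at -0.01. Rpl7l1 rose in ImCD4 and changed by 0.004 ± 0.08 (SE) in ImCD8. Its difference was -0.31 ± 0.11 (SE, adjusted p = 0.327, edgeR), so a difference between the populations was not called.

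Scaled to the summed counts of the family, few members were called apart from the rest. Over all genes this scaling called 6.08% higher and 64.9% lower in ImCD8 in control cells, and 4.86% and 67.6% in dKO. In control cells Rps15a rose by 0.38 ± 0.16 on the log2 scale relative to the family in ImCD8 (SE, adjusted p = 0.0287, edgeR). Rpl27, a large-subunit gene, fell by 0.36, Rps27l by 0.62, Rpl7l1 by 0.82 and Rps4l by 1.91 on that relative scale. In dKO cells Rps15a was 0.47 higher relative to the family, and Rpl27, Rps9, Rps27l and Rpl7l1 fell by 0.37, 0.41, 0.67 and 1.23. No member was called in either dKO comparison under this scaling, where small departures could not be called. Rps19 had an SE of 0.157 in ImCD4 and 0.156 in ImCD8. Yet its share of the family's counts was 2.314%, 2.425% and 2.441% in control ImCD4 and 2.691%, 2.703% and 2.684% in dKO ImCD4. In ImCD8 it was 2.412%, 2.541% and 2.597% in control and 2.721%, 2.882% and 2.789% in dKO, again without overlap.

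The paralogs fell into those that followed their parent gene and those that did not. Rpl22l1, a paralog of Rpl22 that can take its place in the ribosome, had 35.9, 32.6 and 33.9 counts per 100 Rpl22 counts in control ImCD4 and 33.5, 33.1 and 36.1 in control ImCD8. The ratio overlapped in all 4 groups, with means of 34.1 ± 1.63 in control and 34.4 ± 3.28 in dKO ImCD4, and of 34.2 ± 1.61 in control and 33.0 ± 3.63 in dKO ImCD8 (SD, n = 3). Both genes rose in ImCD8 of control mice, Rpl22 by 0.56 and Rpl22l1 by 0.57, at adjusted p = 0.0068 and 0.00231 (edgeR). Neither passed the test in the dKO comparisons, with 0.10 and 0.12 in ImCD4 and 0.37 and 0.29 in ImCD8. Of the exon bases of Rpl22l1, 28.3% overlap another gene model.

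Rps27l, a p53-inducible relative of Rps27, stood at 90.8, 96.1 and 122 CPM in control ImCD4 and at 103, 109 and 115 CPM in control ImCD8. With Rps27 1.53-fold higher in ImCD8, the ratio was 26.2 ± 5.25 counts per 100 Rps27 counts in control ImCD4 and 18.1 ± 1.06 in control ImCD8 (SD, n = 3), without overlap. In dKO it was 25.6 ± 2.29 in ImCD4 and 15.9 ± 2.98 in ImCD8. Rpl7l1 showed the same pattern against Rpl7, at 42.1, 47.7 and 49.7 counts per 100 Rpl7 counts in control ImCD4 and 25.5, 30.3 and 30.1 in control ImCD8. The dKO libraries had 49.2, 63.5 and 42.8 in ImCD4 and 20.3, 29.2 and 21 in ImCD8. All ImCD8 libraries lay below all ImCD4 libraries in both paralog pairs. Rps4l had 0.807, 0.714 and 0.639 counts per 100 Rps4x counts in control ImCD4 and 0.419, 0.521 and 0.0606 in dKO ImCD4, without overlap. In ImCD8 the ratio was 0.239, 0.32 and 0.112 in control and 0.0914, 0.295 and 0.272 in dKO. These ratios rest on few Rps4l reads, and the gene was not called in either dKO comparison.

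**Figure D4:**
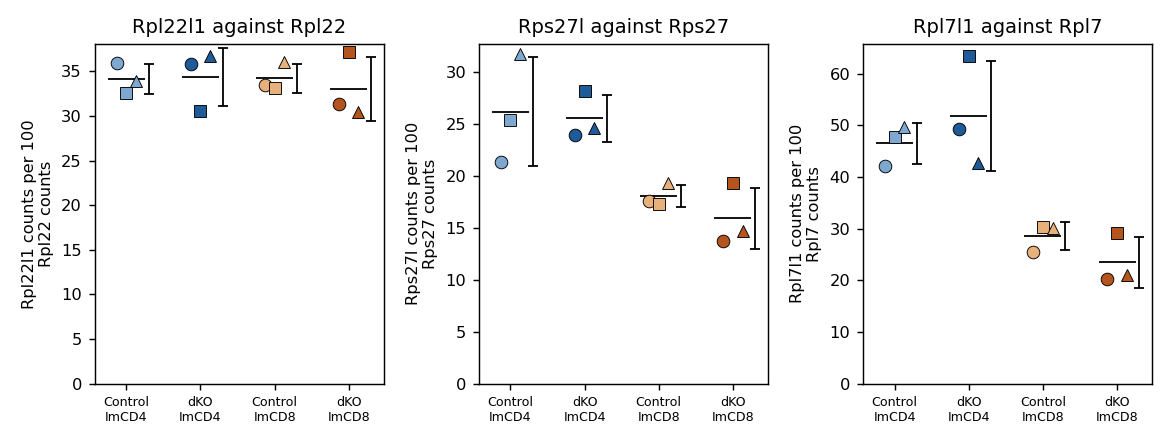
Counts of 3 paralogs per 100 counts of their parent gene in each library, with 1 symbol per replicate (circle, square and triangle for replicates 1, 2 and 3), a line at the group mean and a bar of 1 SD (n = 3). Rpl22l1 stays at about 34 per 100 Rpl22 counts in all groups, while Rps27l and Rpl7l1 are lower in ImCD8 than in ImCD4.

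The other 5 genes with a paralog name, those restricted to testis or muscle in textbook accounts among them, were not tested. Rpl10l and Rps12l1 had 0 counts in all 12 libraries. Rpl3l, the muscle paralog of Rpl3, had at most 2 counts summed over the libraries of a group, Rpl39l 2 to 11 and Rpl36al 8 to 19. Reads from near-identical copies and from the 244 pseudogene rows of the family may have been split or dropped in counting, and the values of such genes are uncertain to that extent. The pseudogene rows together held 3.31 to 3.57 counts per 100 counts on the family in all 12 libraries.

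Rpl5 and Rpl11 belong to the particle that binds Mdm2 and stabilises p53 when ribosome assembly is disturbed. Rpl11 was at 174, 169 and 162 CPM in control ImCD4, 200.1, 157 and 209 CPM in dKO ImCD4, 276, 267 and 265 CPM in control ImCD8, and 399, 253 and 350.1 CPM in dKO ImCD8. It rose by 0.68 ± 0.14 between the populations in control cells (SE, adjusted p = 0.00151, edgeR) and did not pass the test in either dKO comparison, where its libraries overlapped. Rpl5 rose by 0.51 ± 0.10 between the populations in control cells (SE, adjusted p = 0.00041, edgeR) and stood at 0.13 and 0.24 in the dKO comparisons of ImCD4 and ImCD8. Of 12 tested genes of the p53 arm, 8 were lower and none higher in control ImCD8 than in control ImCD4, with a median of -0.44, beside 22.1% of all genes called lower. In dKO cells 4 were lower and 1, Pmaip1, was higher in ImCD8, with a median of -0.27, beside 21.6% of all genes called lower and 22.1% higher. Bbc3, which encodes the death protein PUMA, was the 1 gene of these 12 called in the dKO comparisons. Over all genes 13.4% were called in dKO ImCD4 and 6.14% in dKO ImCD8. The list's median was -0.04 in ImCD4, with 5 of 12 above 0, and 0.03 in ImCD8, with 8 of 12 above 0. The log2 fold change of Bbc3 was 0.65 in ImCD4 and 0.56 in ImCD8, at adjusted p = 0.000334 and 0.00414 (edgeR).

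Levels can be compared between genes only per length. In control ImCD4 the highest levels per kilobase of exon were those of Rps29 (1094 ± 61.4 CPM per kb), Rpl13 (870.3 ± 15.1), Rps27 (855 ± 54.9), Rpl37a (807 ± 9.97) and Rpl36 (776 ± 25.9), with SD and n = 3. The libraries of Rpl13 and Rps27 overlapped on this scale, as did those of Rpl37a and Rpl36, while those of the other neighbours in the order did not. The median over the tested members was 218 CPM per kb. The lowest of the 75 tested members with an exon length were Rpl24 (1.70 ± 0.341 CPM per kb), Rpl13a (6.25 ± 0.738) and Rps15a (38.2 ± 1.76), the last overlapping Rpl22 (38.4 ± 3.22). Rps4l, at 1.70 to 2.36 CPM in control ImCD4, has no exon length in the table used and is not in this order. Other gene models overlap 71.5% of the exon bases of Rpl24 and 54.9% of those of Rpl13a, and the exon model of Rps15a spans 5395 bases, so these levels depend on the annotation. For the 56 tested members whose exons overlap no other gene, 54 were called higher in ImCD8 in control cells, beside 23.1% of all genes. In each dKO comparison 5 of the 56 were called higher, beside 7.26% of all genes in ImCD4 and 2.62% in ImCD8.

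The 7 ribosomal protein genes outside the name pattern moved like the family between the populations. In control cells 6 of 7 were higher in ImCD8 and none lower, with a median of 0.58, beside 23.1% of all genes called higher. In the dKO ImCD4 comparison none was called by edgeR, with a median of 0.31. An unadjusted p under 0.05 was reached by 4, beside 27.3% of all genes. In dKO ImCD8 2 were called higher, beside 2.62% of all genes. Of these, Rplp1, a protein of the ribosomal stalk, stood at 573, 608 and 602 CPM in control ImCD8 and at 973, 628 and 869.6 CPM in dKO ImCD8. The groups did not overlap, replicate 2 was the lowest dKO library here as well, and the log2 fold change was 0.47 ± 0.13 (SE, adjusted p = 0.045, edgeR). The call on Rplp1 was lost under 14 of 24 alternatives: without any 1 of the 3 control ImCD8 libraries (adjusted p = 0.103 to 0.151, edgeR), without dKO ImCD8 replicate 1 or 3 (0.159 and 0.136), without any 1 control ImCD4 library or dKO ImCD4 replicate 1 (0.0595 to 0.0656), and under 5 other settings. Scaled to the summed counts of the family, its log2 fold change was 0.13 (adjusted p = 0.563, edgeR), and without dKO ImCD8 replicate 2 it was 0.64 (adjusted p = 0.000614, edgeR).

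Of the other genes of translation, the elongation and ribosome-bound genes with terminal oligopyrimidine starts also differed between the populations. All 10 tested were higher in control ImCD8, with a median of 0.48, beside 23.1% of all genes called higher. In dKO 9 were higher, with a median of 0.54, beside 22.1% of all genes. In the dKO comparisons 1 of them was called, Eef1g in ImCD4 (0.28 ± 0.08, SE, adjusted p = 0.0283, edgeR). Over all genes 13.4% were called in dKO ImCD4 and 6.14% in dKO ImCD8. The call on Eef1g was lost without any 1 control ImCD4 library and without dKO ImCD4 replicate 1 or 3 (adjusted p = 0.0525 to 0.106, edgeR). The summed share of the elongation and ribosome-bound genes dipped in replicate 2, at 0.526%, 0.476% and 0.555% of gene counts in dKO ImCD4 replicates 1, 2 and 3. It was 0.802%, 0.635% and 0.753% in dKO ImCD8. Of 29 translation initiation factors 16 were higher and 1 lower in control ImCD8, with a median of 0.24, and in dKO 7 were higher and 4 lower, with a median of 0.10. Over all genes 23.1% were called higher and 22.1% lower in control cells, and 22.1% and 21.6% in dKO. In dKO ImCD4 Eif3b and Eif3g rose by 0.32 and 0.23, and in dKO ImCD8 Eif4a1 and Eif4e, a helicase and the cap-binding protein, fell by 0.31 and 0.24, at adjusted p = 0.0249 and 0.0338 (edgeR). Of 24 alternatives, 12 lost the call on Eif4e, among them those without any 1 ImCD8 library of either genotype or without control ImCD4 replicate 1 or 2 (adjusted p = 0.0517 to 0.12, edgeR). The call on Eif3g was lost in 11, among them those without control ImCD4 replicate 1 or 2 or dKO ImCD4 replicate 2 or 3 (0.0885 to 0.151). That on Eif4a1 was lost in 6, among them those without any 1 control ImCD8 library or dKO ImCD8 replicate 2, and that on Eif3b in 4, among them those without control ImCD4 replicate 1 or dKO ImCD4 replicate 2.

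Ribosome assembly factors also differed between the populations. In control cells 28 of 35 were higher in ImCD8 and none lower, with a median of 0.43, beside 23.1% of all genes called higher. In dKO 16 of 35 were higher and none lower, with a median of 0.23, beside 22.1% of all genes called higher. In dKO ImCD8 none was called by edgeR, with a median of 0.00. An unadjusted p under 0.05 was reached there by 3, beside 18.8% of all genes. In dKO ImCD4 7 of 35 rose and none fell, with a median of 0.20, beside 7.26% of all genes called higher. Nhp2, of the H/ACA particle that guides RNA modification, rose by 0.44 ± 0.09, the nucleolar protein Ncl by 0.31 ± 0.07 and Bysl, of the small-subunit precursor, by 0.35 ± 0.08 (SE, adjusted p = 0.00388, 0.0069 and 0.00754, edgeR). No assembly factor differed in its dKO effect between the populations at an adjusted p under 0.05 (edgeR), and 9 of 35 had an unadjusted p under 0.05, beside 9.98% of all genes. Their effect was more positive in ImCD8 for 2 of 35, with a median difference of -0.21 on the log2 scale. Their share of counts did not dip in replicate 2, at 0.378%, 0.390% and 0.419% in dKO ImCD4 and 0.431%, 0.445% and 0.447% in dKO ImCD8.

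**Figure D5:**
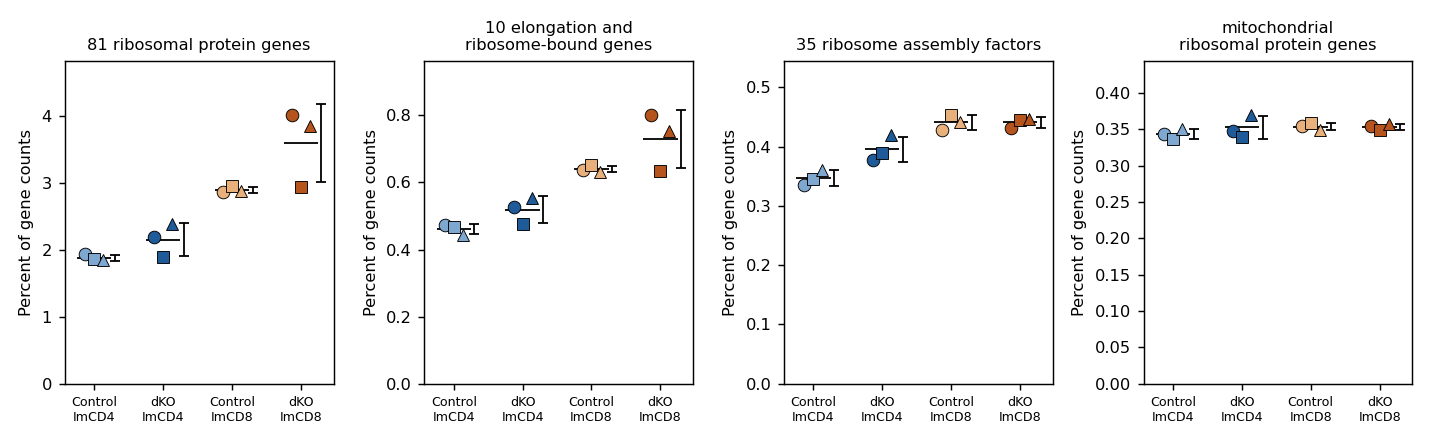
Percent of gene counts on 4 gene lists in each library, with symbols, lines and bars as in the plot of the family's share. The dip of replicate 2 in both dKO groups is seen for the ribosomal protein genes and the elongation genes. For assembly factors replicate 2 lies between the other two, and for mitochondrial ribosomal protein genes all 12 libraries lie between 0.337% and 0.370%.

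Among genes that signal to ribosome synthesis, Myc rose by 0.74 ± 0.17 and Rragc, a nutrient-sensing GTPase, by 0.21 ± 0.07 in dKO ImCD4, and Tsc1, an inhibitor of mTOR, fell by 0.30 ± 0.09 (SE, adjusted p = 0.0138, 0.0494 and 0.0384, edgeR). The call on Rragc was lost in 18 of 24 alternatives, among them those without any 1 control ImCD4 library, dKO ImCD4 replicate 2 or 3, control ImCD8 replicate 2 or 3, or dKO ImCD8 replicate 1 or 3 (adjusted p = 0.0521 to 0.172, edgeR). That on Tsc1 was lost in 11, among them those without any 1 control ImCD4 library, dKO ImCD4 replicate 1 or 2, control ImCD8 replicate 1 or dKO ImCD8 replicate 2 (0.0531 to 0.166). Myc was not called in 3, among them those without control ImCD4 replicate 1 or dKO ImCD4 replicate 3. In dKO ImCD8 Eif4ebp1, a repressor of cap-dependent translation, fell by 0.66 ± 0.15 (SE, adjusted p = 0.0119, edgeR), and no other gene of this list of 18 was called. This call was lost without control ImCD8 replicate 2 or 3 or dKO ImCD8 replicate 1 (adjusted p = 0.0512 to 0.0564, edgeR). Of 14 genes of RNA polymerase I, Cd3eap rose by 0.41 in dKO ImCD4 (adjusted p = 0.0286, edgeR), a call lost in 10 of 24 alternatives, among them those without any 1 control ImCD4 library or dKO ImCD4 replicate 2 or 3, and none was called in dKO ImCD8, where 1 had an unadjusted p under 0.05. None of 7 tested snoRNA host genes was called by edgeR or had an unadjusted p under 0.05 in either dKO comparison, with medians of 0.14 in ImCD4 and 0.29 in ImCD8. Over all genes 7.26% were called higher and 6.16% lower in dKO ImCD4, and 2.62% and 3.53% in dKO ImCD8. An unadjusted p under 0.05 was reached by 27.3% and 18.8% of all genes.

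Mitochondrial ribosomal protein genes, which build the separate ribosome of mitochondria, did not move with the cytosolic family. Of 76 tested, 16 were higher and 5 lower in control ImCD8 than in control ImCD4, with a median of 0.10. Over all genes 23.1% were called higher and 22.1% lower. None of these genes was called by edgeR in either dKO comparison, with medians of 0.06 in ImCD4 and 0.03 in ImCD8. An unadjusted p under 0.05 was reached by 9 and 3 of them, beside 27.3% and 18.8% of all genes. Of 96 tested pseudogene rows of the cytosolic family, 48 were higher and 1 lower in control ImCD8, beside the same shares of all genes. Their median of 0.67 was close to the 0.69 of the family. In dKO ImCD8 2 of the 96 rows were called higher, beside 2.62% of all genes. They were Rps19-ps3 and Rps19-ps6, pseudogenes of Rps19 (adjusted p = 0.042 and 0.0414, edgeR). These calls were lost in 14 and 13 of 24 alternatives, among them 10 and 9 of the 12 fits without 1 library (adjusted p = 0.0512 to 0.155 and 0.0587 to 0.165, edgeR). Their parent Rps19 was called in that comparison too, and reads of parent and copy cannot be told apart with certainty.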

How the data were processed

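Per the labels' protocols, RNA was purified with an RNeasy Plus Micro kit and made into libraries with a Clontech SMARTer kit. The tools cutadapt 1.18, STAR 2.6.1 and HTSeq and the build mm10 are listed in the submitters' processing notes. Which annotation and strand setting served for counting is not stated there, so reads of overlapping or antisense genes may be mixed. The authors deposited raw, unnormalized counts per gene symbol. The 5 summary rows (reads in no gene 10.5% to 16.4% of the tally) stayed out of library sizes and tests.

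The tests used edgeR 4.0.16 under R 4.3.3 (filterByExpr, minimum count 10 and total 15; TMM factors 0.946 to 1.04; robust quasi-likelihood fit of 4 group means on 12 libraries with 8 residual degrees of freedom; two-sided; Benjamini-Hochberg over 13383 genes; threshold 0.05). DESeq2 1.42.0 and limma 3.58.1 were alternatives. Gene positions and exon lengths came from GENCODE M21 (mm10), in which all 81 members were found by symbol. Replicate numbers follow record order and the labels pair no libraries across groups, although the 4 libraries numbered 3 stood apart together. Within-group pairs differed by more than counting noise (chi-square per degree of freedom at least 3.84), so none was a repeated deposit of 1 library. Separate preparations of 1 sample would exceed that noise too.

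The members and lists were chosen with earlier results of these data known. Named are called members by size of change, members with the highest and lowest level per kilobase, genes with a paralog name and their parents, Rpl5, Rpl11, Rps6, Rps19, Rpl22, Rpl22l1 and Rps27l, and up to 3 called genes per companion list and direction in the dKO comparisons. Rpl27 and Rps9, Rps7 and Pmaip1, and the marker genes Cd79b and Epcam, were named after their values were seen. Some genes of the lists are not reported here. On simulated counts of the ImCD4 dKO comparison (13383 genes), 8% of genes changed 1.25-fold, 58% changed 1.5-fold and 76% changed 2-fold were called. These genes were picked at random and simulated independently, so the rates do not hold for the family, whose members vary together.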

Additional observations from a re-analysis of the deposited data

How the results depend on the processing

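No paired analysis was made, because the labels pair no libraries across the groups. A term for the 4 replicate 3 libraries, which stood apart together, was fitted instead and gave 9 members in dKO ImCD4. Against 6 members called higher in dKO ImCD4, the count was 0 with libraries scaled to the family's sum, 21 with no filter on low counts, 10 with only the libraries compared, 2 with replicates 1 and 2 only and 48 without replicate 2 of both dKO groups. Against 6 in dKO ImCD8 it was 0, 60, 1, 0 and 71 in the same settings, 20 with DESeq2, 3 with limma-voom and 12 with a term for the 4 replicate 3 libraries. Leaving out single libraries gave 1 to 17 members in dKO ImCD4 and 0 to 70 in dKO ImCD8. The largest counts, 17 and 70, came without dKO ImCD8 replicate 2. The cause of these shifts was not tested.

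Between the populations, leaving out single libraries gave 66 to 72 members higher and 0 to 1 lower in control cells, where replicates 1 and 2 only gave 51 higher, and 70 to 72 higher and 1 lower in dKO. Scaled to the family's sum, 1 member was higher and 4 were lower in each. Over all genes that scaling called 6.08% higher and 64.9% lower in control cells, and 4.86% and 67.6% in dKO. In control cells the count of lower members was 2 with library size only, and 1 each with limma-voom, no filter, only the libraries compared and the replicate 3 term. The difference in share between ImCD8 and ImCD4 of control cells, 1.02 percentage points, became 1.14 with the 7 genes outside the name pattern and 0.822 with unassigned reads in the denominator.

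Sign changes of named genes with a call in either setting numbered 23, all with scaling to the family's sum, by its construction. Of values called in neither setting, another 30 changed sign under that scaling, among them Rpl24 in ImCD8 against ImCD4 of dKO (0.33 to -0.43), and 21 under other settings. In control cells the log2 differences between the populations became -0.22 for Rpl13a, -0.07 for Rpl36, -0.083 for Rps27, -0.15 for Rpl10, -0.13 for Rpl22, -0.12 for Rpl22l1, -0.12 for Rpl7, -0.17 for Rps12, -0.62 for Rps27l, -0.21 for Rps4x, -0.012 for Rpl11 and -0.18 for Rpl5. In dKO they became -0.32 for Rpl13a, -0.064 for Rpl36, -0.19 for Rpl10, -0.049 for Rpl22l1, -0.011 for Rpl3, -0.009 for Rpl36a, -0.09 for Rpl7, -0.67 for Rps27l, -0.22 for Rps4x, -0.18 for Rpl5 and -0.078 for Rps6. Of 1968 alternative values of called named genes, 1651 kept direction and call, 296 kept direction and lost the call and 21 reversed. Intervals cover the spread between libraries, and depth limits Rpl24, Rps4l and the untested paralogs.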
